A study of Mus musculus with 10 samples.

Results

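Levels of 10 marker genes of testicular macrophages were compared between wild-type (WT) testis and testis without a functional Crem gene (KO). The markers were Adgre1, Csf1r, Cd68, Lyz2, C1qa, C1qb, C1qc, Mrc1, Cd163 and Cd14. Each was taken from the array feature that the platform annotation gives to that symbol alone, and where a gene had more than 1 such feature the one with the highest mean over all arrays would stand for it. All 10 were found, with 1 feature each, among 19661 genes measured. The KO mice were homozygous for a constitutive disruption of Crem, the gene of a transcription factor that answers to cAMP, made by placing a neomycin resistance gene across its DNA-binding domains. The 5 WT and 5 KO mice shared the mixed strain 129Pas x C57Bl/J, were 8 weeks old and untreated, and were killed at 0 h circadian time, when the light came on. RNA of whole testis was measured, with 1 mouse per array. The RNA integrity values that the paper gives for adult mice were slightly higher in every KO sample than in every WT sample. They are not linked to single arrays, and the part of RNA quality in the changes was not tested. The labels also give 4 batches without saying what they stand for. Batch 2 held WT replicates 1, 2 and 3 and KO replicate 3. Batch 4 held WT replicate 5 and KO replicates 1, 4 and 5. Batch 1 was KO replicate 2 alone and batch 3 was WT replicate 4 alone.

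Macrophages are the most common immune cells of the testis. Most lie in the interstitium in close contact with the Leydig cells that make testosterone, and others, which carry class II histocompatibility molecules, lie along the wall of the seminiferous tubules. Signalling through the receptor Csf1r keeps tissue macrophages alive, and the cells take up dead cells, debris and haemoglobin. In these KO mice sperm development stops at round spermatids, so late germ cells are missing from the tissue.

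RefSeq promoter windows of build GRCm38.p6 were at hand for 6 of the 10 markers, namely Cd68, Lyz2, C1qb, C1qc, Mrc1 and Cd163. Adgre1, Csf1r, C1qa and Cd14 had no window there. Windows of 4 markers are shown, because C1qb and C1qc are neighbours on chromosome 4 that did not share a call, and because Cd68 and Lyz2, both genes of the lysosome or its contents, had log2 changes of 0.46 and 0.93, a difference that was not tested. Each runs 5′ to 3′ on the minus strand and ends at the base before the annotated gene, which is counted as −1. Capitals mark a match to a motif. The windows are C1qb at chr4:136886201-136886450, C1qc at chr4:136892937-136893164, Cd68 at chr11:69666171-69666420 and Lyz2 at chr10:117282273-117282522.
C1qb: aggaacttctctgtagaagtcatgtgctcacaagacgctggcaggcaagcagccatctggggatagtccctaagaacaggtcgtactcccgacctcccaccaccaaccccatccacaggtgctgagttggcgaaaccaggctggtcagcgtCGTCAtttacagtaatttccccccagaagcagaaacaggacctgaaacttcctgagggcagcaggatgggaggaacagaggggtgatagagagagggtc
C1qc: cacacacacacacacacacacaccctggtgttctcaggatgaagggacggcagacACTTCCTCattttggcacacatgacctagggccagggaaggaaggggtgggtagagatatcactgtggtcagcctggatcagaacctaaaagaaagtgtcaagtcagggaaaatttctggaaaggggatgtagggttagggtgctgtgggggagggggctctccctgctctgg
Cd68: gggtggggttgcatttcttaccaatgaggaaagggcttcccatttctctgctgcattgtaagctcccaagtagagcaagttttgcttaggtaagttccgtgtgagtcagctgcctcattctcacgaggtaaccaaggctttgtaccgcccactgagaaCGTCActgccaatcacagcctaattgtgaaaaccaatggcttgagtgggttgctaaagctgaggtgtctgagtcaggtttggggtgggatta
Lyz2: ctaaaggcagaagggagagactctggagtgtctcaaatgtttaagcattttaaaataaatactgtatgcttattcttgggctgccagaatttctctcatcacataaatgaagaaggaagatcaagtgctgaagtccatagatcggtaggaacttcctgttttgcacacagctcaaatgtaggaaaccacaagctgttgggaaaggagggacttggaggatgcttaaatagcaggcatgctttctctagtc
Both strands were searched for the cAMP response element TGACGTCA, for its shorter core TGACG, which lies within it, and for GAGGAAGT, a motif of the macrophage factor PU.1. TGACGTCA was in none of the 6 marker windows and in 588 of 32851 windows of all genes (1.79%). TGACG was in 6837 windows (20.8%), among them those of Cd68 and C1qb. There it is read on the other strand as CGTCA, at −92 in Cd68 and at −99 in C1qb. GAGGAAGT was in 1052 windows (3.2%), among them that of C1qc, where it is read on the other strand at −173. These are matches of letters only, and no binding was measured.

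Levels are log2 values after RMA, the authors' background correction, normalisation and summary of probes, and 1 unit is a doubling. Crem itself fell from 10.95 ± 0.06 (SD, n = 5) in WT to 9.24 ± 0.15 (SD, n = 5) in KO, which is −1.71 ± 0.07 in log2 (limma adjusted p = 3.0e-10). The medians of the arrays lay between 7.11 and 7.15. Across features, Pearson's r ran from 0.9936 to 0.9954 for pairs of WT arrays and from 0.9919 to 0.995 for pairs of KO arrays. No 2 arrays were identical.

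Macrophage markers were higher in KO testis. Of the 10 markers 9 rose, 0 fell, also at an unadjusted p under 0.05, and C1qb did not pass the test. The log2 changes ran from 0.25 for Cd14 to 1.52 for Adgre1, with a median of 0.55, where the median over all genes was 0.07. Among all genes 31.1% were called higher and 13.2% lower, at a limma adjusted p under 0.05 over all features. In 6 markers every KO array lay above every WT array, which held for 22.0% of all genes, and in 0 markers did every KO array lie below, which held for 10.7%. RNA of a whole organ cannot tell more macrophages from more of each RNA per macrophage. Late spermatid genes moved with the genotype as well, since the mean level of 8 such genes was 13.03 to 13.34 in the WT arrays and 7.69 to 9.91 in the KO arrays. The part of that loss of germ cell RNA in the rise of the markers was not tested.

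**Figure D1:**
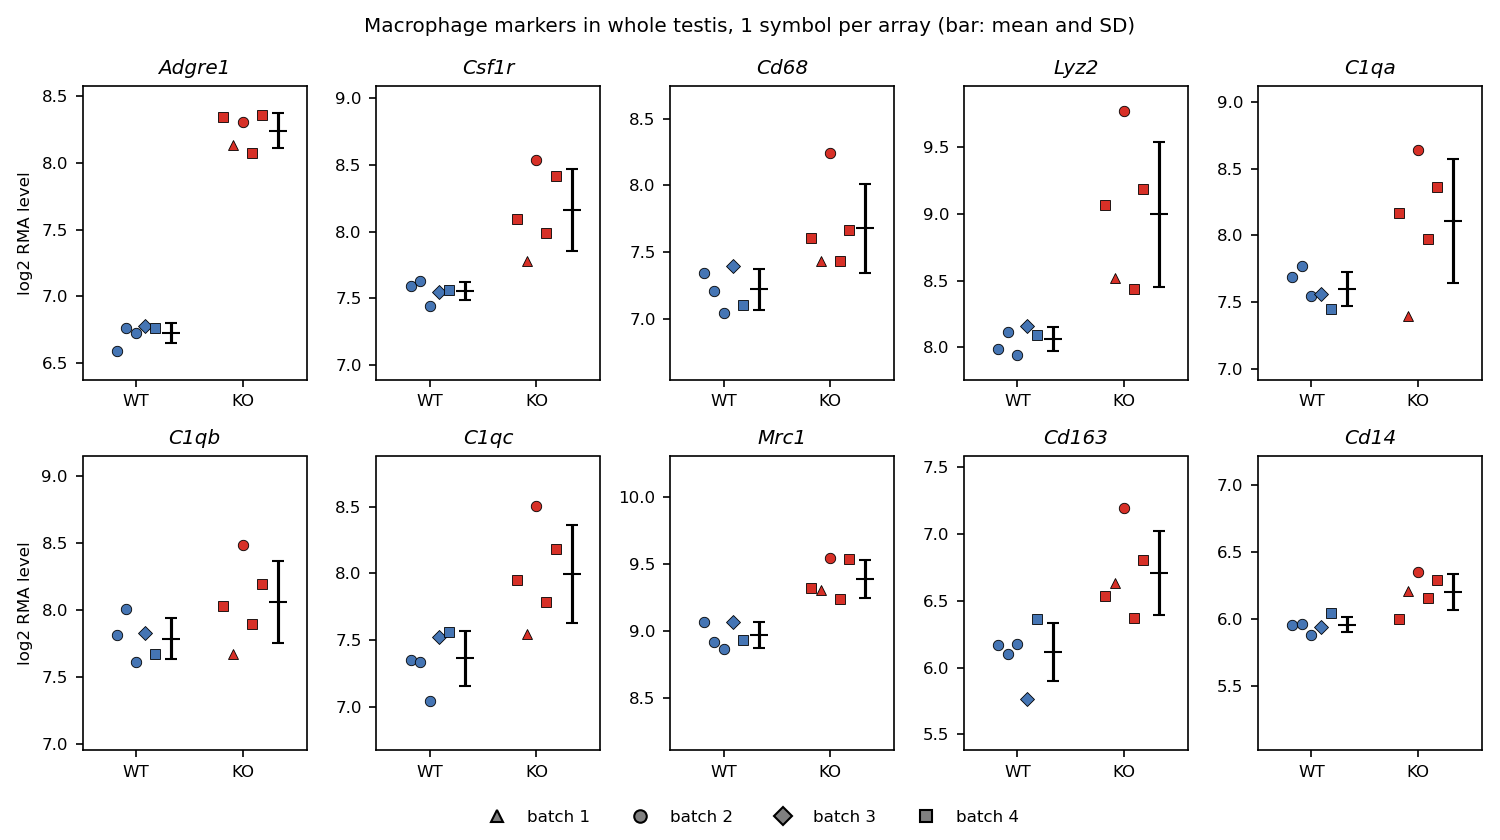
Log2 RMA level (vertical axis) of the 10 macrophage markers in the WT and KO arrays, with a symbol shape for each of the 4 batches and a bar for mean and SD. All panels span the same number of log2 units. KO arrays lie above WT arrays without overlap in Adgre1, Csf1r, Cd68, Lyz2, Mrc1 and Cd163, and KO replicate 3 (circle) is the highest array of 9 markers.

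Adgre1 encodes F4/80, the adhesion receptor by which mouse macrophages are usually recognised. Its level was 6.59, 6.76, 6.73, 6.78 and 6.76 in WT replicates 1 to 5 and 8.34, 8.13, 8.31, 8.07 and 8.36 in KO replicates 1 to 5. The groups were 1.29 apart at their nearest arrays, and the KO arrays stayed close together. The change was 1.52 ± 0.07 (SE, 95% confidence interval 1.36 to 1.67), a 2.86-fold rise with a limma adjusted p of 7.1e-10. It was the largest of the 10 changes. Csf1r encodes the receptor for the growth factors CSF1 and IL-34. Its level was 7.59, 7.63, 7.45, 7.55 and 7.56 in WT replicates 1 to 5 and 8.09, 7.78, 8.53, 7.99 and 8.41 in KO replicates 1 to 5. All KO arrays lay above all WT arrays, KO replicate 2 by the least and KO replicate 3 by the most. Csf1r rose by 0.61 ± 0.12 (SE, interval 0.35 to 0.87), or 1.52-fold, with a limma adjusted p of 0.0012. Csf1r and the marker Cd14 lie on chromosome 18, as does the disrupted gene Crem. Cd74 and Acaa2, named further below, lie there too. The part of this shared chromosome in their changes was not tested.

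Cd68 encodes a glycoprotein of lysosomes and endosomes that is abundant in phagocytes. WT replicates 1 to 5 gave 7.35, 7.21, 7.04, 7.40 and 7.11, and KO replicates 1 to 5 gave 7.61, 7.44, 8.24, 7.43 and 7.67. The groups were only 0.03 apart, with KO replicates 2 and 4 just above WT replicate 4, and KO replicate 3 stood well above the other KO arrays. The change was 0.46 ± 0.14 (SE, interval 0.16 to 0.75), a 1.37-fold rise (limma adjusted p = 0.0161). Lyz2 encodes the lysozyme of macrophages and other myeloid cells, an enzyme that breaks down bacterial cell walls. WT replicates 1 to 5 gave 7.99, 8.12, 7.94, 8.16 and 8.09, and KO replicates 1 to 5 gave 9.07, 8.52, 9.77, 8.44 and 9.18. The WT arrays were tightly grouped and the KO arrays were spread over 1.33 units, all of them above WT. Lyz2 had the second largest change, 0.93 ± 0.20 (SE, interval 0.51 to 1.36), or 1.91-fold (limma adjusted p = 0.0019). Its near relative Lyz1, whose probes could share signal, changed by 0.14 ± 0.10 and did not pass the test (limma adjusted p = 0.291).

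C1qa, C1qb and C1qc encode the chains A, B and C of complement component C1q, which starts the classical pathway and also tags dead cells for removal. Tissue macrophages are a main source of all of them. C1qa was at 7.68, 7.77, 7.55, 7.56 and 7.45 in WT replicates 1 to 5 and at 8.17, 7.40, 8.64, 7.97 and 8.37 in KO replicates 1 to 5. KO replicate 2 lay below every WT array, whereas the other KO arrays lay above all of them. C1qa rose by 0.51 ± 0.18 (SE, interval 0.13 to 0.89), or 1.42-fold (limma adjusted p = 0.0335). This call ended when WT replicate 3, 4 or 5 or KO replicate 1, 3 or 5 was left out, with adjusted p of 0.0642, 0.0596, 0.0726, 0.0671, 0.079 and 0.0818 in that order.

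C1qb was at 7.81, 8.01, 7.61, 7.83 and 7.67 in WT replicates 1 to 5 and at 8.03, 7.67, 8.49, 7.90 and 8.20 in KO replicates 1 to 5. KO replicates 2 and 4 lay within the WT range. The change of 0.27 ± 0.13 (SE, interval −0.01 to 0.55) did not pass the test over all arrays (limma adjusted p = 0.113), but did without KO replicate 2 (0.37, adjusted p = 0.0222). C1qc was at 7.35, 7.34, 7.05, 7.52 and 7.56 in WT replicates 1 to 5 and at 7.95, 7.55, 8.50, 7.78 and 8.18 in KO replicates 1 to 5. KO replicate 2 was just under the highest WT array, and the others were above. C1qc rose by 0.63 ± 0.15 (SE, interval 0.30 to 0.96), or 1.55-fold (limma adjusted p = 0.005). The 3 chains had the same order of KO arrays, with replicate 3 highest, then 5, 1 and 4, and replicate 2 lowest. A difference between the chains in their change was not tested.

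Mrc1 encodes the mannose receptor CD206, which takes up glycoproteins and marks many resident macrophages. Its level was 9.07, 8.91, 8.86, 9.07 and 8.93 in WT replicates 1 to 5 and 9.32, 9.30, 9.55, 9.24 and 9.54 in KO replicates 1 to 5. All KO arrays were above all WT arrays, and the groups were each narrow. Mrc1 rose by 0.42 ± 0.08 (SE, interval 0.26 to 0.59), or 1.34-fold (limma adjusted p = 0.00059). Its relative Mrc2 changed by 0.05 and did not pass. Cd163 encodes the scavenger receptor for haemoglobin bound to haptoglobin, and was at 6.17, 6.11, 6.18, 5.77 and 6.36 in WT replicates 1 to 5 and at 6.54, 6.63, 7.20, 6.37 and 6.81 in KO replicates 1 to 5. KO replicate 4 was only 0.01 above WT replicate 5, so that the groups barely parted. Cd163 rose by 0.59 ± 0.14 (SE, interval 0.29 to 0.90), or 1.51-fold (limma adjusted p = 0.0045). Cd14 encodes a co-receptor for bacterial lipopolysaccharide. It was at 5.96, 5.96, 5.88, 5.94 and 6.05 in WT replicates 1 to 5 and at 5.998, 6.21, 6.35, 6.16 and 6.30 in KO replicates 1 to 5. KO replicate 1 fell inside the WT range and the other KO arrays were above it. Cd14 had the smallest change of the markers, 0.25 ± 0.07 (SE, interval 0.09 to 0.40), a 1.19-fold rise (limma adjusted p = 0.0125).

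Within batches all 10 markers kept a positive change. Batch 2 has 1 KO mouse and batch 4 has 1 WT mouse, so that their values describe that mouse against the others and are no replicated test of the genotype. In batch 2, where KO replicate 3 is the single KO array, 10 markers were called higher, against 11.2% of all genes, and the median change was 1.01. Lyz2 changed by 1.75 there, C1qc by 1.26 and Csf1r by 0.98. In batch 4, where WT replicate 5 is the single WT array, 2 markers were called higher, against 9.67% of all genes, and the median change was 0.45. They were Adgre1, at 1.49 ± 0.15 (SE, limma adjusted p = 0.00061), and C1qa, at 0.72 ± 0.16 (SE, limma adjusted p = 0.0267). The lowest values in batch 4 were 0.10 ± 0.14 for Cd14 and 0.21 ± 0.18 for Cd163, whose intervals held 0. In both fits the spread of the lone array is assumed to be that of its fellow arrays. The fit with batch as a fixed block, which draws on batches 2 and 4, called 9 markers higher, against 26.3% of genes. Under the block C1qb passed (0.53, adjusted p = 0.0082) and Cd14 did not (0.26, adjusted p = 0.0685).

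Without KO replicate 3, 8 markers were called higher, against 28.6% of genes, and the median change was 0.43. C1qa, at 0.38, was then the one call that ended. Without KO replicates 2 and 3 together, the pair of KO arrays outside batch 4, 8 markers were called higher, against 30.6% of genes, and Cd14 was the call that ended (adjusted p = 0.0674). At a log2 change of at least 1 only Adgre1 was called, against 1.37% of genes. The levels also depend on the scaling of the arrays. Centring on 9 housekeeping genes moved the median of all genes by −0.07 and left 8 markers called. Adding B2m, which was itself higher in KO testis, moved it by −0.15 and left 6. This setting takes part of the rise of B2m off every gene, and under it Cd68, C1qa and Cd14 were no longer called.

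**Figure D2:**
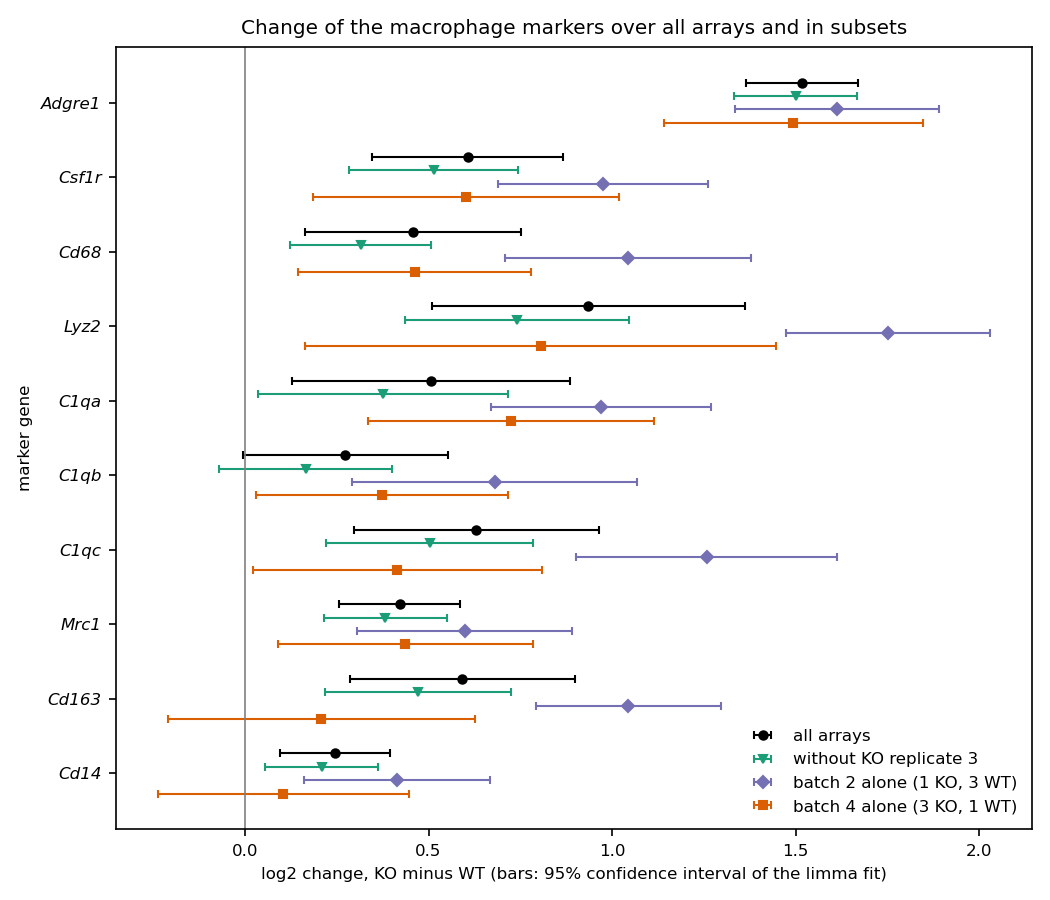
Log2 change, KO minus WT (horizontal axis), of the 10 macrophage markers over all arrays, without KO replicate 3, and within batch 2 and batch 4 alone. Bars are 95% confidence intervals of the limma fit. Adgre1 stays between 1.49 and 1.61 in all 4 fits, while the batch 2 estimates of Lyz2, C1qc, Cd68 and Cd163 lie well above their batch 4 estimates.

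The KO arrays were more spread than the WT arrays in all 10 markers. The ratio of the KO SD to the WT SD ran from 1.44 in Cd163 to 5.96 in Lyz2, with a median of 2.1. Over all genes the median ratio was 1.11, the SD was larger in KO in 56.9%, and 13.5% had a ratio above 2.1. Genes called higher had a median ratio of 1.18. Without KO replicate 3 the median ratio of the markers was 1.67, with 8 of 10 more spread in KO, and that of all genes was 1.1.

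The same KO arrays were high or low in most markers. KO replicate 3 was the highest KO array in 9 of 10, where it was the highest in 18.4% of all genes, and the exception was Adgre1, whose highest array was KO replicate 5. KO replicates 3 and 5 were the 2 highest in 9 of 10, against 9.17% of all genes. KO replicate 4 was among the 2 lowest in all 10, against 43.1% of genes, and KO replicate 2 in 8 of 10, against 43.6%. KO replicate 3 was the single KO array of batch 2. Within batch 4, KO replicate 5 was above KO replicate 4 in all 10 markers, against 52.1% of all genes. KO replicate 1 lay between them in 9 markers and below both in Cd14. The mean of the 10 markers, taken relative to the WT mean, was 0.58, 0.33, 1.02, 0.40 and 0.76 in KO replicates 1 to 5, and between −0.11 and 0.05 in the WT arrays. Without Adgre1 it was 0.46, 0.21, 0.96, 0.30 and 0.67. The number of markers above all WT arrays was 9, 7, 10, 9 and 10 of 10 in the same order of arrays, and the share of all genes above all WT arrays was 44.3%, 38.0%, 41.8%, 40.7% and 43.5%.

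**Figure D3:**
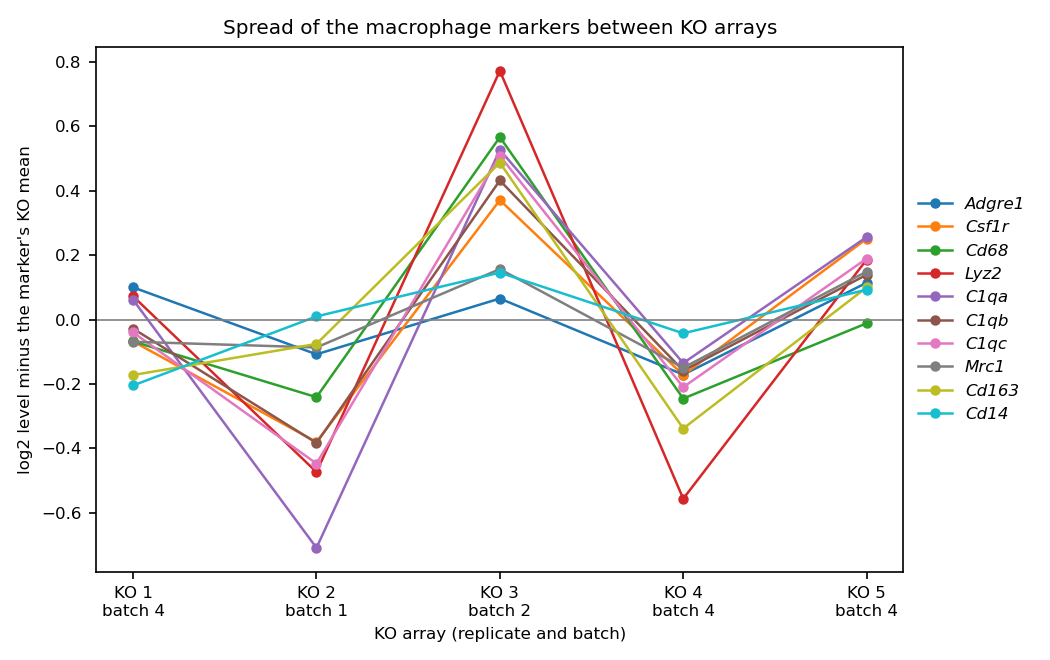
Log2 level of each macrophage marker minus its own KO mean (vertical axis) in the 5 KO arrays, labelled with their batch. Each line is 1 marker. KO replicate 3 is on top for 9 markers and KO replicate 5 lies above KO replicate 4 for all 10, while Adgre1, Mrc1 and Cd14 vary least.

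Partners of the markers were taken from lists by pathway. Where a list below has 0 rises or 0 falls in limma, it also had 0 at an unadjusted p under 0.05, except for 1 fall among the class II genes. Of 9 measured genes of the Csf1r pathway 2 rose and 0 fell, with a median change of 0.15. Among all genes 31.1% were called higher, and the difference in share was not tested. Csf1, the ligand, rose from 6.70 ± 0.16 to 7.13 ± 0.23 (SD, n = 5 each), by 0.43 ± 0.11 (SE, limma adjusted p = 0.0067). Cbl, a ubiquitin ligase that sends the activated receptor to degradation, rose by 0.42 ± 0.06 (SE, limma adjusted p = 1.8e-04). Il34, the other ligand, changed by 0.18 ± 0.08 and did not pass (adjusted p = 0.078), but did without KO replicate 1 (0.24, adjusted p = 0.0209). Spi1, which encodes PU.1, changed by 0.12 ± 0.10 (adjusted p = 0.384).

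The complement list is wider than the classical pathway and also holds receptors, regulators and proteins that bind C1q. Of its 13 measured genes 7 rose and 1 fell, with a median of 0.26, where 31.1% of all genes were called higher and 13.2% lower. C1s1, one of the proteases that C1q carries, rose by 0.92 ± 0.08 (SE, limma adjusted p = 9.8e-07). C1ra, the other, rose by 0.26 ± 0.09 (adjusted p = 0.0348), a call that ended when WT replicate 1, 3, 4 or 5 or KO replicate 1, 2 or 3 was left out (adjusted p from 0.0515 to 0.0888). Serping1, the inhibitor of both proteases, rose by 0.70 ± 0.10 (SE, limma adjusted p = 6.0e-05). C3ar1, a receptor for a complement fragment, rose by 0.74 ± 0.09 (adjusted p = 2.0e-05). Cd55, which protects cells from complement on their own surface, changed by −1.84 ± 0.08 (SE, limma adjusted p = 5.0e-10), and its close relative Cd55b could share its probe signal.

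Partners of Cd14 in lipopolysaccharide reception gave 3 rises and 0 falls among 6 measured genes, with a median of 0.27. For this list and the next, the shares of all genes were 31.1% called higher and 13.2% called lower. Ly96, which binds lipopolysaccharide beside the receptor Tlr4, rose from 5.22 ± 0.17 to 8.88 ± 0.29 (SD, n = 5 each), by 3.65 ± 0.13 (SE, limma adjusted p = 3.7e-11). In the KO arrays it was 8.94, 9.29, 8.64, 8.56 and 8.96, so that KO replicate 2, among the lowest in most markers, was the highest here. Lbp, the carrier that hands lipopolysaccharide to Cd14, rose by 0.64 ± 0.11 (adjusted p = 3.5e-04), and Tlr4 by 0.37 ± 0.10 (adjusted p = 0.0078). Tlr4 was low in both groups, at a mean of 5.00 in WT and 5.37 in KO. Genes that bind, take up or break down haemoglobin and haem, not all of them acting after uptake by Cd163, gave 5 rises and 0 falls among 8. Their median was 0.24. Lrp1, the receptor for haem bound to haemopexin, rose by 0.40 ± 0.08, the iron exporter Slc40a1 by 0.34 ± 0.12 and the haem oxygenase Hmox1 by 0.27 ± 0.09 (SE, limma adjusted p = 0.0015, 0.0392 and 0.0202). The call of Slc40a1 ended without WT replicate 3, 4 or 5 or KO replicate 1, 3 or 5 (adjusted p from 0.0525 to 0.0997), and that of Hmox1 without WT replicate 1 (0.0543) or 3 (0.0529). Hp, the haptoglobin gene, changed by 0.09 ± 0.14 (adjusted p = 0.682).

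Other genes known from macrophages moved the same way in part. Of 31 measured genes 17 rose and 1 fell, with a median of 0.33, against the 31.1% and 13.2% of all genes given above. Msr1, the class A scavenger receptor, rose by 1.51 ± 0.08 (SE, limma adjusted p = 4.9e-09). Mpeg1, which encodes the pore-forming protein perforin-2, rose by 1.14 ± 0.10 (adjusted p = 1.0e-06). Others in this group were singled out after their values were seen. Vsig4, a complement receptor of resident macrophages, rose by 1.09 ± 0.20, from 5.18 to 5.55 in the WT arrays to 6.10, 5.66, 6.83, 6.70 and 6.92 in KO replicates 1 to 5. The lysosomal protease Ctss rose by 0.88 ± 0.12, the monocyte chemokine receptor Ccr2 by 0.61 ± 0.11, the dead cell receptor Mertk by 0.60 ± 0.08 and the fractalkine receptor Cx3cr1 by 0.49 ± 0.06. Ccr2 was low in both groups, at a mean of 4.94 in WT and 5.55 in KO, where the array medians were 7.11 to 7.15. Trem2 (0.01), Lyve1 (−0.00) and Timd4 (0.09), also genes of resident macrophages, did not pass.

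Aif1, which encodes Iba1, was the single gene of the group that fell. Its mean was 11.83 ± 0.11 in WT and 9.03 ± 0.26 in KO (SD, n = 5 each), a change of −2.80 ± 0.11 (SE, limma adjusted p = 9.8e-11). Every KO array, at 8.66 to 9.31, was below every WT array, at 11.66 to 11.93. Aif1 is read as a macrophage gene in many tissues and is also made in spermatids. Among these 31 genes KO replicate 3 was the highest KO array in 21 and KO replicate 4 the lowest in 12. Class II presentation genes gave 3 rises and 0 falls among 6, with a median of 0.38. The macrophages along the tubule wall carry class II molecules, but RNA of whole testis does not assign these genes to them. Among all genes 31.1% were called higher and 13.2% lower. Cd74, the chaperone of class II molecules, rose by 0.89 ± 0.10 (SE, limma adjusted p = 5.3e-06) and H2-Aa by 0.86 ± 0.19 (adjusted p = 0.0022). H2-DMa (−0.20, limma adjusted p = 0.0612) and Ciita (0.02, adjusted p = 0.855), singled out after their values were seen, did not pass. H2-Ab1, singled out after its values were seen, was at 8.08, 7.85, 8.10, 9.86 and 9.99 in WT replicates 1 to 5 and at 9.63, 7.99, 9.97, 8.36 and 9.62 in KO replicates 1 to 5. Its arrays fell into a low and a high set that both genotypes shared, and the change did not pass (adjusted p = 0.633).

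**Figure D4:**
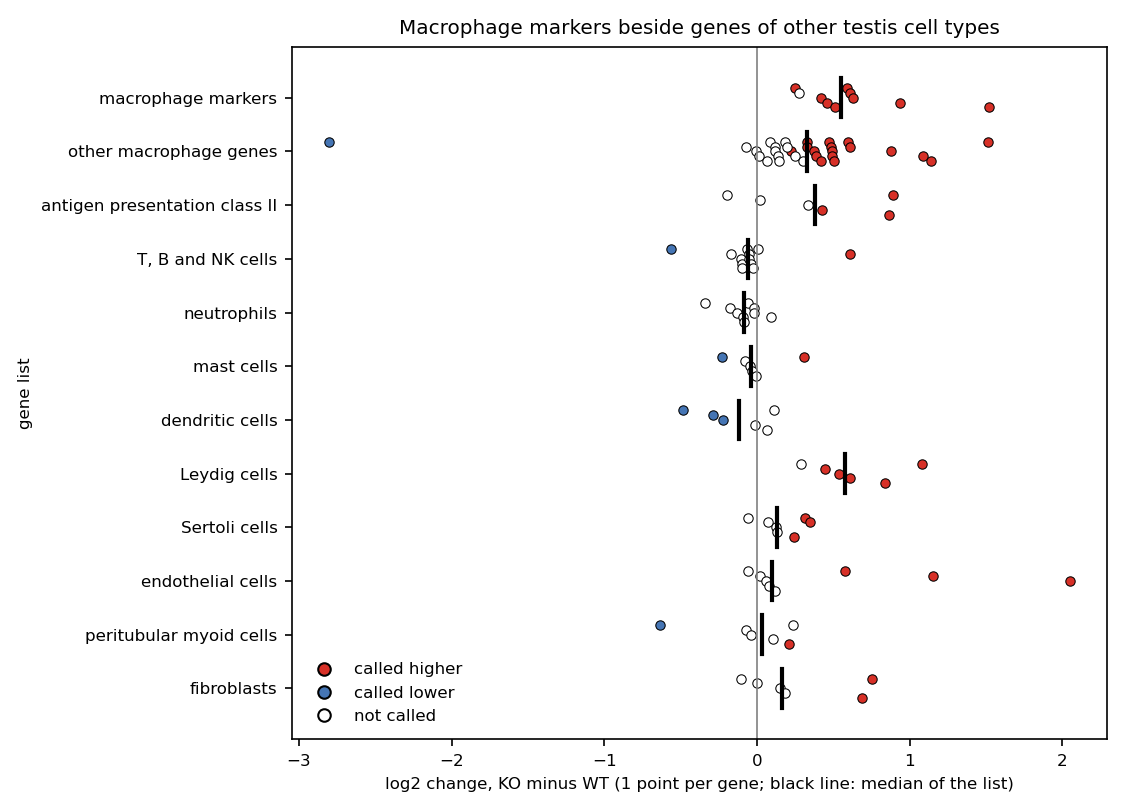
Log2 change, KO minus WT (horizontal axis), of each gene in 12 lists (vertical axis), coloured by its call, with the median of each list as a black line. The macrophage markers have a median of 0.55 and the Leydig cell genes one of 0.57, while T, B and NK cell genes and neutrophil genes lie around 0. These last 2 lists had low mean levels, 5.52 to 5.72 and 5.19 to 5.50 in the KO arrays.

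Markers of other blood cells were read against the same shares of all genes, 31.1% called higher and 13.2% called lower. Mean levels in the KO arrays were low, at 5.52 to 5.72 for T, B and NK cell genes and 4.86 to 5.05 for mast cell genes. The array medians were 7.11 to 7.15, so a change near 0 at such levels does not show that these cells were unchanged. Of 12 T, B and NK cell genes 1 rose and 1 fell, with a median of −0.06. These were Cd2, a T and NK cell adhesion receptor (0.61 ± 0.14, SE, limma adjusted p = 0.004), and Cd3d, a chain of the T cell receptor complex (−0.56 ± 0.10; adjusted p = 4.0e-04). Of 9 neutrophil genes 0 passed the test in limma, and 0 had an unadjusted p under 0.05, with a median change of −0.08. The 6 mast cell genes gave 1 rise and 1 fall with a median of −0.04. Fcer1a, a chain of the IgE receptor, rose by 0.30 ± 0.06 (SE), but only from 4.07 to 4.37, a mean level that exceeded 5.75% of features. The carboxypeptidase Cpa3 changed by −0.23 ± 0.08, from 5.22 to 4.99. Its call ended without WT replicate 3 or 5 or KO replicate 1, 4 or 5 (limma adjusted p from 0.0706 to 0.0971). The 6 dendritic cell genes gave 0 rises and 3 falls with a median of −0.12, a larger share of falls than among all genes. They were the growth factor receptor Flt3 (−0.49 ± 0.09, SE, limma adjusted p = 0.00069), the transcription factor Zbtb46 (−0.29 ± 0.06, adjusted p = 0.0018) and the chemokine receptor Xcr1 (−0.22 ± 0.07, adjusted p = 0.0265). Of 3 erythrocyte genes Alas2, of haem synthesis, fell by 0.68 on the log2 scale, and the mean level of the 3 was 6.82 to 6.98 in WT and 6.53 to 6.73 in KO. Lyz2 and Cd14 are also made by neutrophils. The mean level of the neutrophil genes was 5.28 to 5.49 in the WT arrays and 5.19 to 5.50 in the KO arrays. In KO replicate 3, the array with the highest Lyz2, it was −0.14 relative to the WT mean. The part of neutrophils in the rise of Lyz2 and Cd14 was not tested.

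Other cells of the interstitium and the tubules were read beside the markers and against 31.1% of all genes called higher and 13.2% called lower. Of 6 measured Leydig cell genes 5 rose and 0 fell, with a median of 0.57. Hsd17b3, the last enzyme of testosterone synthesis, rose by 1.08 ± 0.14 (SE, limma adjusted p = 2.7e-05) and Cyp11a1, the first, by 0.84 ± 0.16 (adjusted p = 0.00087). The mean level of the Leydig genes was 9.86 to 10.04 in the WT arrays and 10.23 to 10.91 in the KO arrays. Relative to the WT mean it was 0.69, 0.30, 0.98, 0.49 and 0.71 in KO replicates 1 to 5, which is the order that Csf1r and the C1q chains had. Fibroblast genes rose in 2 of 6 (Pdgfra, 0.75, and Dcn, 0.69), a share near that of all genes, and their mean relative to WT was 0.45, 0.13, 0.63, −0.01 and 0.20 in KO replicates 1 to 5. The part of these cell types in the spread of the markers between KO arrays was not tested.

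Of 7 Sertoli cell genes 3 rose and 0 fell, with a median of 0.13, where 31.1% of all genes were called higher. The difference in share was not tested. The mean of the Sertoli cell genes was 0.21, 0.08, 0.22, 0.24 and 0.10 above WT in KO replicates 1 to 5. The genes that rose included Fshr, the receptor for follicle-stimulating hormone (0.35), and the tight junction gene Cldn11 (0.31). The call of Cldn11 ended when any single array other than KO replicate 2 was left out (limma adjusted p from 0.0548 to 0.091). Of 8 endothelial genes 3 rose, again beside 31.1% of all genes and with no test of the difference in share. Their median was 0.10, and they were led by the angiopoietin receptor Tek (2.05 ± 0.11, SE) and the cadherin Cdh5 (1.15 ± 0.07). Peritubular myoid genes gave 1 rise and 1 fall among 6 with a median of 0.03. These were the smooth muscle myosin Myh11 (0.21), no longer called without KO replicate 3 (adjusted p = 0.0515), and the smooth muscle actin Actg2 (−0.63 ± 0.07, SE). Of 8 genes of spermatocytes and early germ cells 6 rose, against 31.1% of all genes, with a median of 0.31, among them Kit (0.47) and Ddx4 (0.40). All 8 late spermatid genes fell, with a median of −5.06, led by the protamine Prm1 (−5.52) and the fibrous sheath gene Akap4 (−5.49). Their mean relative to WT was −3.29 in KO replicates 2 and 3 each and −4.40, −5.20 and −5.51 in KO replicates 1, 4 and 5. KO replicates 2 and 3 lay at opposite ends of the marker means, and they also came from different batches. The part of late germ cell RNA in the spread of the markers between KO arrays was not tested. Epididymis genes, read for tissue cut along with the testis, gave 0 calls in limma among 5, also at an unadjusted p under 0.05, and their mean level was 5.63 to 5.97 in WT and 5.61 to 5.74 in KO. The 9 housekeeping genes gave 4 rises and 2 falls with a median of 0.06. Hprt (0.35) and Sdha (0.32) rose most, and Actb (−0.24) and Ywhaz (−0.18) fell, the latter not without WT replicate 1 or 3 or KO replicate 2, 4 or 5 (adjusted p from 0.0526 to 0.0652).

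**Figure D5:**
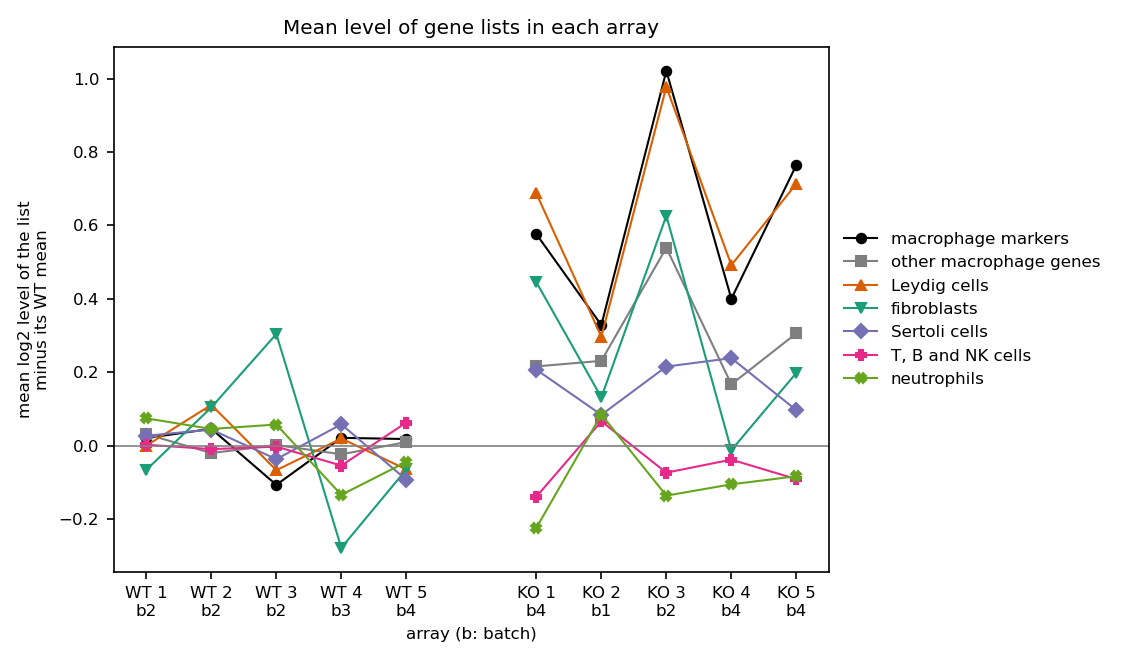
Mean log2 level of 7 gene lists in each array minus the WT mean of that list (vertical axis), with the batch (b) under each array. The macrophage markers and the Leydig cell genes are both highest in KO replicate 3, at 1.02 and 0.98, and lowest among the KO arrays in KO replicate 2, at 0.33 and 0.30.

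The genes whose profile over the 10 arrays was nearest to the mean profile of the markers were looked for among all other genes, by the root mean square of the difference in log2 level after each gene's own mean was taken off. They were Tkt of the pentose phosphate pathway (0.0803), the sterol hydroxylase Cyp27a1 (0.0898), the lysosomal protease Ctsz (0.0907), Mid2 (0.0923) and Acaa2 of fatty acid breakdown (0.0933). Their log2 changes were 0.50, 0.69, 0.48, 0.58 and 0.57. Of the markers themselves Csf1r was nearest to the mean profile, at 0.0506, and Adgre1 farthest, at 0.471. Among the relatives of Adgre1, Adgre5 rose by 0.25 ± 0.08 (SE, limma adjusted p = 0.0212) and Adgre4 changed by 0.02 and did not pass. The call of Adgre5 ended without WT replicate 1 or 4 or KO replicate 3 or 4 (adjusted p from 0.0501 to 0.0566).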

How the data were processed

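Affymetrix Mouse Gene ST arrays, 1 per mouse, read the RNA of whole testis from 5 WT and 5 KO mice. The authors made the deposited log2 values with RMA in the XPS package, kept to core annotated transcripts and AFFX controls, with background from antigenomic probes, probes summarised per transcript, and quantile normalisation. Each level is therefore relative to the RNA of the whole testis, and isoforms are not told apart. The package version and the genome build of the probe annotation are not given in the sources used here. The table has 35557 rows, of which 9868 hold no value in any array, and the other 25689 features were tested. In the platform annotation 20777 of them had 1 symbol, 232 several and 4680 none. Symbols were updated through RefSeq (GRCm38.p6), where 20696 matched, giving 19661 genes, of which 564 had more than 1 feature and took the one with the highest mean.

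The comparison of KO with WT used limma 3.58.1 (lmFit, eBayes, two-sided, no covariate) under R 4.3.3. The Benjamini-Hochberg adjustment ran over all features, and an adjusted p under 0.05 was called. The fit was tested on simulated data in which both genotypes had the same SD and there were no batches. That test therefore does not show how the fit handles the wider KO spread of the markers. The number of arrays limits the precision. Samples were grouped by the genotype in the labels. The markers and the gene lists were chosen with earlier results of these data known. The genes named were Crem, the markers, fixed partners, in each list the up to 2 called genes with the largest rise and the up to 2 with the largest fall, and the 5 genes nearest in profile. Others are said to have been chosen after their values were seen. Some list entries were not analysed here, and each count is given over the measured genes of its list. A planned comparison of protein sequences was not run. Alternatives were another round of quantile normalisation, centring on the median or on housekeeping genes with and without B2m, batch as a fixed or random block or alone, array weights, trend and robust eBayes, leaving out the dimmest 25% of features, calls only at a log2 change of 1 or more, averaging the features of a gene, and leaving out arrays.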

Additional observations from a re-analysis of the deposited data

Results flagged for a closer look

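Of 128 groups of 5 arrays, each the WT or the KO arrays of 1 marker or of 1 other gene chosen by the naming rule, 4 held an array whose gap to its neighbour took up more of the range of the group than Dixon's critical value of 0.71 at the 5% level. Chance alone gives such a gap in about 1 in 20 groups. In Adgre1, WT replicate 1 was the lowest WT array at 6.59, with a gap of 0.715 of the range. In Cd68, KO replicate 3 was the highest KO array at 8.24, with a gap of 0.712. KO replicate 3 was the lowest KO array in Cbl, at 10.15 with a gap of 0.733, and in Cd2, at 6.98 with a gap of 0.735.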

How the results depend on the processing

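Over 24 alternatives the changes of the 10 markers turned direction in 0 cases, kept their call in 209, lost it in 28 and gained it in 3. For the other genes chosen by the naming rule these counts were 1143 kept, 143 lost and 5 gained. The calls of C1qa and Cd14 were the ones lost most often. In batch 4 alone 2 markers were called higher, 5 of the other macrophage genes (17 over all arrays) and 17 of 137 genes of 19 other lists (43 over all arrays). In batch 2 alone the median change of the markers was 1.01 in place of 0.55. With calls held to a log2 change of at least 1, 1 marker and 3 other macrophage genes were called higher, and the other lists gave 4 higher and 9 lower. Centring on housekeeping genes with B2m gave 24 higher and 34 lower in the other lists, in place of 43 and 16, under a scaling that moved the median of all genes by −0.15. Leaving out each array in turn gave 8 to 10 markers called higher and a median change of 0.43 to 0.65. Batch as a random block, with a consensus correlation of 0.0214, left 9 markers called. No paired analysis was possible because WT and KO mice share no replicate number in the labels, and the numbers used here only name the mice. The count of single arrays in each batch limits what the batch fits can show.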
